A study of Mus musculus with 3 samples.

Results

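Nuclear receptors are transcription factors, most of which are switched by small fat-soluble ligands such as steroids, retinoids, thyroid hormone, vitamin D and lipids. The 33 genes described here are nuclear receptor genes, Esr1 among them, found by symbol in a table of 44788 genes. All 33 had a row in the table, and 25 passed the filter on low counts that left 15529 genes for testing. The set was chosen from the counts and log2 fold changes of this same contrast, with the Esr1 value in view, so the values of the members are given as a description and support nothing by themselves.

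RNA was sequenced from primary cultures of chondrocytes, the cells of cartilage, taken from the knee joints of C57BL/6 mice whose age is not given. The 2 cKO libraries came from cells of genotype Col2a1-CreERT2;Kdm6b f/f, and the 1 control library from Kdm6b f/f cells without the recombinase. Cells of both genotypes received 4-hydroxytamoxifen, a ligand of the estrogen receptor, at 1 µM for 48 h in F12 medium with 10% serum, so the control carries the floxed alleles and the ligand too. The Col2a1 promoter drives the recombinase in cells that transcribe the gene of cartilage collagen, so it need not act in every cell of a culture. CreERT2 joins Cre recombinase to a mutated ligand-binding domain of the human estrogen receptor alpha, the protein of ESR1. The labels do not say from how many animals or cultures the cKO libraries came. The p-values cover only the spread among these samples, part of which may be technical.

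Library totals lay between 12489738 and 12636471 counts. Xist, an RNA of female cells, had 2 and 10081 counts in the first and second cKO library and 1 in the control, and the Y-linked gene Ddx3y had 680 and 0 counts in that order and 732 in the control. The Y-linked genes Eif2s3y, Kdm5d and Uty were likewise at 0 in the second cKO library alone, so the cKO libraries are not from 1 animal and differ in sex. By these genes the control matched the first cKO library. In edgeR 1 of these 5 genes, Xist, was called higher, at a log2 fold change of 12.1, on the second cKO library alone. The tools differed on these 5 genes. DESeq2 called 0 of them, limma-voom called 0 higher and 4 lower, and edgeR with the prior set to 3 degrees of freedom called 0. The part of sex in values that differ between the cKO libraries was not tested. The targeted gene Kdm6b had 1049 and 948 counts in the cKO pair and 1289 in the control, a log2 fold change of -0.39 ± 0.14 (SE) that did not pass the edgeR test (adjusted p = 0.138). Gene counts can include reads outside the floxed part, so they check the genotype labels only weakly. The chondrocyte label was checked with 14 markers, which summed to 18402 and 16985 CPM (counts scaled to library size) in the cKO pair and 31018 CPM in the control. All 14 were detected, and 13 of them fell in edgeR, against 1.9% of all genes, with Col2a1 the 1 that did not pass. The number that fell was 12 in DESeq2, 14 in limma-voom and 2 with the edgeR prior set to 3 degrees of freedom. In bulk RNA, fewer cells of a type and less RNA per cell cannot be told apart. Macrophage and leukocyte markers, of which 12 were in the table, summed to 12.6 and 13.0 CPM in the cKO pair and 7.82 CPM in the control. Of these 12, 6 were at 0 in every library, among them Itgam, C1qa, C1qb, Tyrobp and Cd3e. Fibroblast and synovium markers summed to 20363 and 18460 CPM in the cKO pair and 20875 CPM in the control. Of 9 tested, 2 rose in edgeR, against 3.01% of all genes, and 0 passed in DESeq2. The 2 were Thy1, by 1.65 ± 0.33 on the log2 scale, and the lubricin gene Prg4, by 0.56 ± 0.16 (SE). Both cKO libraries lay above the control in 5 of the 9 and below it in 4, against 36.6% and 37.4% of all genes.

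A nuclear receptor joins a DNA-binding domain of zinc fingers to a ligand-binding domain. Steroid receptors wait with chaperones until hormone arrives, whereas the receptors for retinoic acid, thyroid hormone, vitamin D, fatty acids and oxysterols sit on DNA as partners of a retinoid X receptor and exchange corepressors for coactivators when ligand binds. In cartilage, retinoid and thyroid hormone signals are known for controlling when growth plate chondrocytes mature, and estrogen for its part in growth plate closure.

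The estrogen receptor is switched by the last helix of its ligand-binding domain, helix 12, which closes over an agonist and is displaced by 4-hydroxytamoxifen. The last coding exon of mouse Esr1 is shown because it encodes that helix and because the substitutions in the CreERT2 domain include residues of its human counterpart. It was read from GRCm38 at chr10:5001189-5001420 on the plus strand, and is exon 9 of the 9 in transcript Esr1-201 of GENCODE M21. The 232 bases end before the stop codon, and the capitals mark the 6 codons of the leucine-rich core of helix 12, residues 543 to 548 of 599.
Esr1 exon 9, coding part: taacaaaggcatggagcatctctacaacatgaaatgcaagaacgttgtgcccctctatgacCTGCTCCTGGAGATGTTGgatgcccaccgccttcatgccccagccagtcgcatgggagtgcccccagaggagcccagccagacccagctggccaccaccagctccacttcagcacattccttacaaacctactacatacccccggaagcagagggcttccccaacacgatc

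Esr1 (ENSMUSG00000019768, chromosome 10, 4611593 to 5005614, plus strand) was counted 445 times in cKO replicate 1, 428 times in cKO replicate 2 and 39 times in the control. In CPM, the value was 35.7 and 33.4 in the cKO pair and 3.14 in the control. Both cKO libraries were far above the control, and they differed little from each other, at 34.6 ± 1.62 CPM (SD, n = 2). The log2 fold change was 3.46 ± 0.24 (SE), an 11.0-fold higher level. The ratio of normalised counts was 11.4 for cKO replicate 1 (exact 95% interval 8.18 to 16.2) and 10.6 for cKO replicate 2 (7.66 to 15.2). Those intervals cover counting error only, and both ratios share the 1 control library. Among the 467 genes called higher, Esr1 took place 95 by log2 fold change.

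The counts are per gene and do not show where in Esr1 a read fell. Transcripts of the mouse gene and of the estrogen receptor part of the CreERT2 transgene, which only the cKO cells carry, therefore cannot be told apart here. Between the genotypes, the summed chondrocyte markers were lower in the cKO pair and the summed macrophage and leukocyte markers were higher, with 0 called. The summed fibroblast and synovium markers were lower in the cKO pair, while 2 of the 9 tested, Thy1 and Prg4, were called higher. Another 4 of these 9 lay below the control in both cKO libraries. The part of these cell types in the Esr1 value was not tested.

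Esr1 was the 1 member past the threshold of 0.05 on the adjusted p in edgeR. Of the 25 members tested, 1 was higher, 0 were lower and 24 did not pass. The shares among all 15529 genes were 3.01% called higher, 1.9% called lower and 4.91% called in either direction. DESeq2 and limma-voom gave the same counts for the members, 1 higher and 0 lower, though DESeq2 set an adjusted p for only 23 of the 25. Without the filter on low counts edgeR called 0 members, and Esr1 kept its log2 fold change of 3.46. At an unadjusted p under 0.05 there were 4 members, Esr1, Esrra, Ppard and Thra, against 15.7% of all genes. In 9 of the 25 both cKO libraries lay above the control, in 7 both lay below, and in 9 the control lay between them. Among all genes, 36.6% had both cKO libraries above and 37.4% had both below. All of these counts come from the contrast that was in view when the set was chosen, and nothing is read from them.

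**Figure D1:**
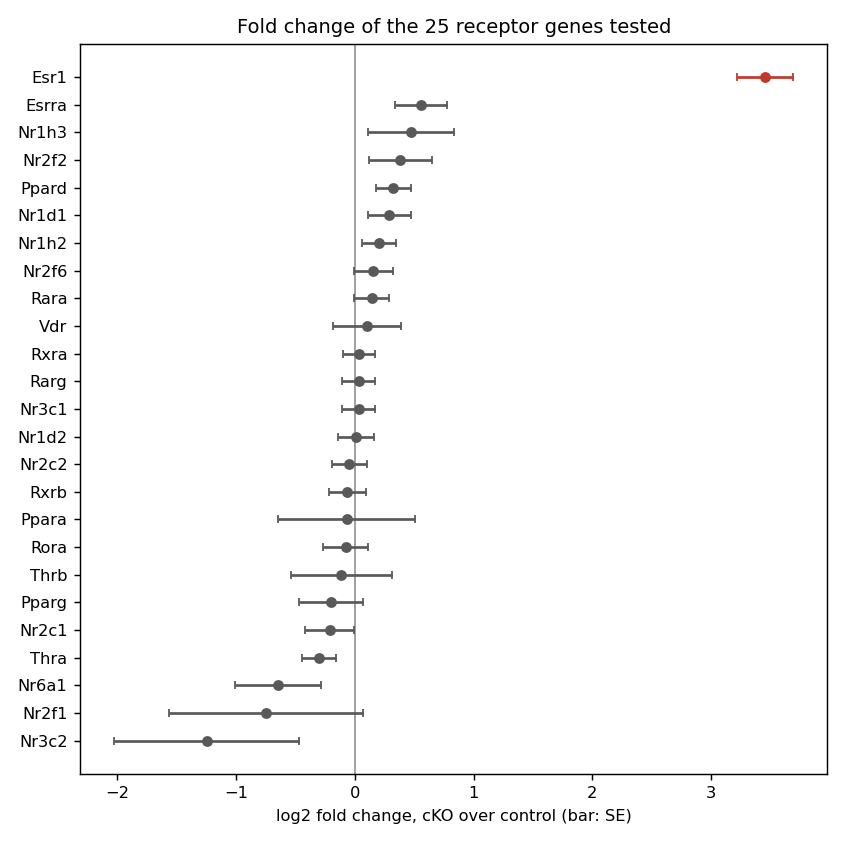
Log2 fold change of cKO over control for the 25 receptor genes tested, on the x axis, with bars of 1 SE, sorted from top to bottom. Esr1, in red, lies at 3.46, and the other 24 genes lie between -1.25 and 0.56.

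Without Esr1 the receptors as a group stayed near 0, with a median log2 fold change of 0.02 over 24 genes beside -0.00 over all genes tested. The median size of the change in either direction was 0.18 for these 24 and 0.21 for all genes. Summed over the 32 members other than Esr1, the level was 1167 and 1145 CPM in the cKO pair and 1126 CPM in the control. Of the 25 members tested, 20 lay within 0.5 on the log2 scale. The 5 outside were Esr1, Esrra, Nr6a1, Nr2f1 and Nr3c2, and the last 2 had at most 13 counts in any library. The largest SE among those at a mean of 10 CPM or more, Esr1 left out, was 0.27.

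**Figure D2:**
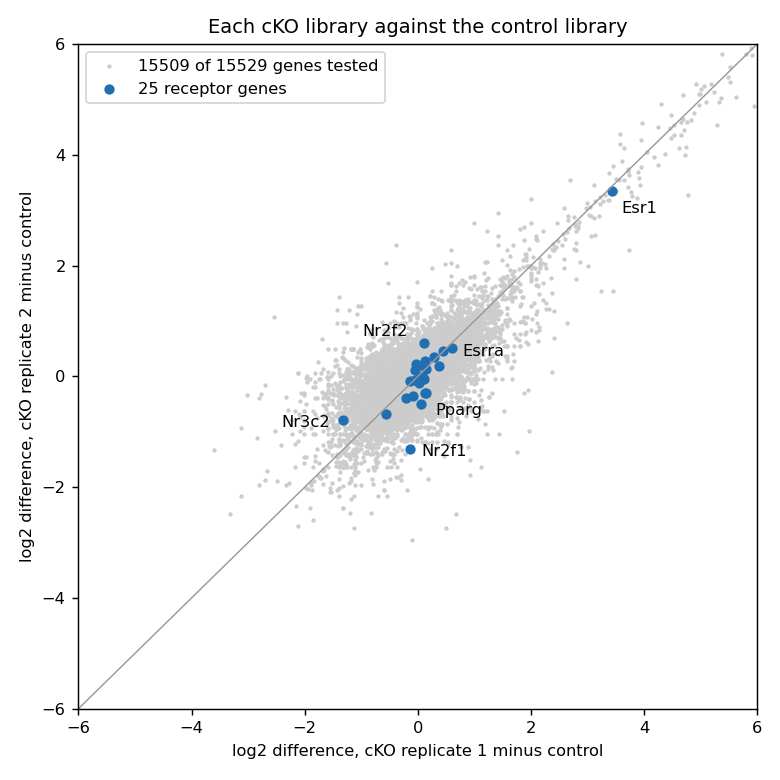
Log2 difference of cKO replicate 1 from the control (x axis) against that of cKO replicate 2 (y axis) for genes tested (grey, 15509 of 15529 within the axes) and 25 receptor genes (blue), with the diagonal as a line. Both axes share the control library, so points follow the diagonal in part for that reason. Esr1 lies at 3.44 and 3.35, apart from the other receptors.

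Levels of different genes were compared as CPM per kb of exon, and retinoid receptors stood at the top. Rarg, the gamma receptor for retinoic acid and the form known from cartilage, had 55.1 and 61.2 CPM per kb in the cKO pair and 56.9 CPM per kb in the control. Rxra, the shared partner of many receptors, had 34.3 and 31.0 in the cKO pair and 31.9 in the control on the same scale. The 3 values of Rarg lay above all 3 of Rxra. Nr1h2, which encodes the oxysterol receptor LXR beta, followed at 25.9, 28.6 and 23.6 CPM per kb, in the order cKO replicate 1, cKO replicate 2 and control. Thra, the thyroid hormone receptor alpha, had 20.7, 18.2 and 23.9 CPM per kb in that order. The ranges of Nr1h2 and Thra overlapped, so their order is not set by these libraries, while Rxra lay above both.

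Below them, the glucocorticoid receptor gene Nr3c1 had a mean of 14.6 CPM per kb and lay below Thra in every library. Nr2f6, Rara and Rxrb followed at means of 12.6, 11.4 and 10.0 CPM per kb. Neighbours were separate at Nr3c1 and Nr2f6 and at Rara and Rxrb, and overlapped at Nr2f6 and Rara. Nr1d1, Ppard and Nr1d2, at means of 9.03, 8.66 and 8.23, overlapped with one another, and all 3 lay above Nr2c1 at 3.99. The ranges of Rxrb and Nr1d1 overlapped too, so the order of that pair is not set by these libraries. With the longest transcript as the length in place of all exons, Rarg stayed first, but Rxra moved from place 2 to place 4, behind Nr1h2 and Thra. Places in this order therefore depend on the exon model. Rarg and Rxra together took 35.1% and 36.5% of all member counts in the cKO pair and 36.9% in the control.

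Esr1 moved within this order. Per kb it had 2.62 and 2.45 in the cKO pair and 0.23 in the control, which was place 16 of 33 in each cKO library and place 23 in the control. With the longest transcript as the length, its cKO mean was 5.46 in place of 2.53 CPM per kb, and a mouse exon length would not hold for reads of the transgene. Esr1 took 2.97% and 2.84% of the member counts in the cKO pair, against 0.278% in the control.

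**Figure D3:**
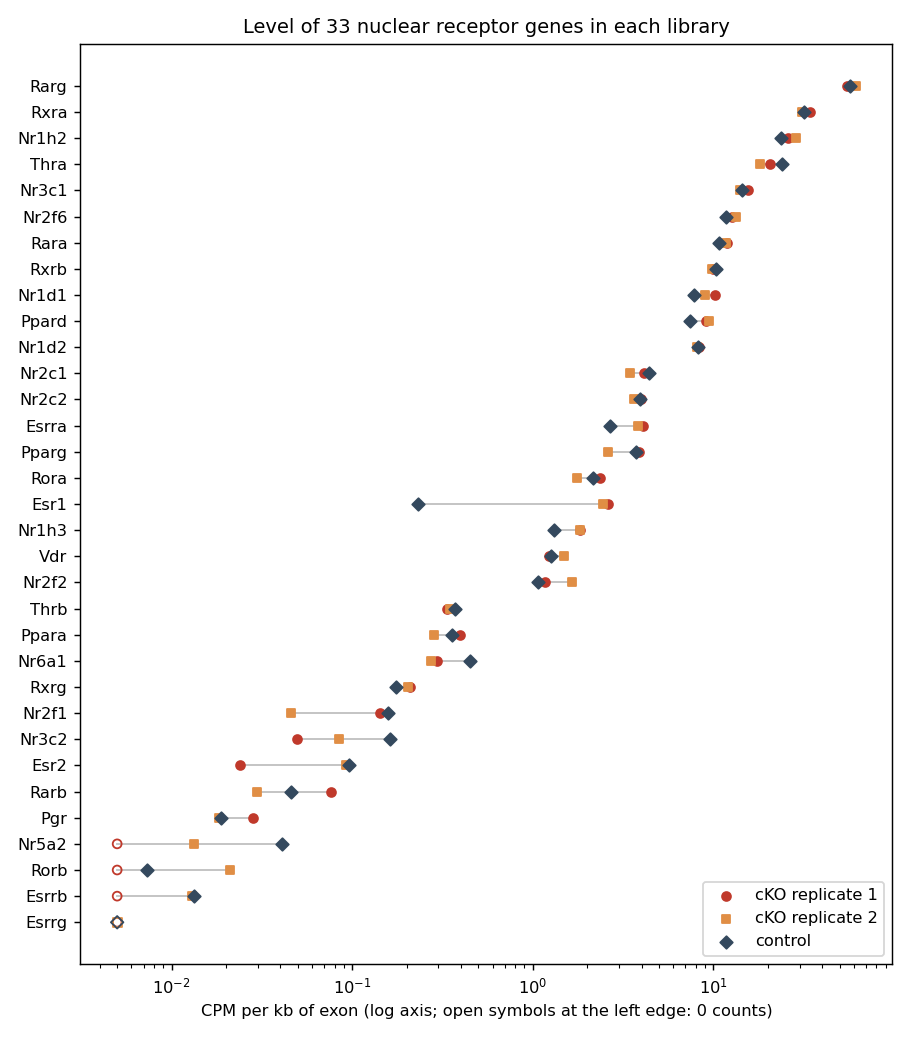
Level of the 33 receptor genes in CPM per kb of exon on a log axis, with 1 symbol for each library and a line over their range, sorted by mean. Open symbols at the left edge stand for 0 counts. The symbols of most genes lie close together, and the control symbol of Esr1 at 0.23 lies far to the left of its cKO symbols at 2.62 and 2.45.

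Of the other estrogen-linked receptors, Esrra was well counted and 3 were near 0. Esr2, the beta estrogen receptor, had 1 and 4 counts in the cKO pair and 4 in the control, too few for a test. Esrra, an orphan relative that drives mitochondrial genes, had 223 and 215 counts in the cKO pair and 146 in the control, or 17.9, 16.8 and 11.8 CPM. Both cKO libraries lay above the control, with a log2 difference of 0.56 ± 0.22 (SE), and it did not pass over all genes. Esrrb had 0, 1 and 1 counts in the order cKO replicate 1, cKO replicate 2 and control. Esrrg was at 0 in all 3 libraries. Exons of Esrra share 73 bases with Trmt112 on the opposite strand, and the use of strand in the counting is not given in the sources used here.

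Among receptors of other steroids, only the glucocorticoid receptor gene was well counted. Nr3c1 had 1479 and 1382 counts in the cKO pair and 1375 in the control, or 119, 108 and 111 CPM. The control lay between the cKO libraries, and the log2 fold change was 0.03 ± 0.14 (SE). Nr3c2, the mineralocorticoid receptor gene, had 4 and 7 counts in the cKO pair and 13 in the control, a log2 fold change of -1.25 ± 0.78 (SE). Its summed ratio of 0.416 had an exact 95% interval of 0.169 to 1.01, so a lower level was not resolved at this depth. Pgr, the progesterone receptor gene and a classic estrogen target, had 3 and 2 counts in the cKO pair and 2 in the control.

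The retinoid receptors tested differed by 0.14 or less on the log2 scale. Rarg had 2924 and 3340 counts in the cKO pair and 3006 in the control, or 235, 261 and 242 CPM, with a log2 fold change of 0.03 ± 0.14 (SE). Rxra had 2336 and 2169 counts in the cKO pair and 2160 in the control, or 188, 169 and 174 CPM, with a log2 fold change of 0.04 ± 0.14. For both genes the control lay between the cKO libraries. Rara, at 51.8 and 51.3 CPM in the cKO pair and 46.7 CPM in the control, differed by 0.14 ± 0.15. Rxrb, at 39.7, 39.0 and 41.0 CPM in the same order, differed by -0.06 ± 0.16. Counts of Rarb, itself a target of retinoic acid, were 5, 2 and 3, and those of Rxrg were 6, 6 and 5, so neither was tested. Exons of Rarb share 1793 bases with Top2b on the opposite strand. Of the 4 retinoid receptors tested, 0 passed in edgeR, DESeq2 or limma-voom, with 0 at an unadjusted p under 0.05.

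Of the 5 receptors that sense lipids, 3 lay above the control in both cKO libraries, against a share of 36.6% over the genes tested. In the other 2 the control lay between the cKO libraries. By any of the 3 tools, 0 of the 5 passed. Ppard, the fatty acid receptor expressed in most tissues, had 68.1 and 71.4 CPM in the cKO pair and 55.7 CPM in the control, a log2 fold change of 0.32 ± 0.15 (SE). Nr1h2 had 86.8 and 95.8 CPM in the cKO pair and 79.3 CPM in the control, a change of 0.20 ± 0.14. Nr1h3, which encodes LXR alpha, had 57 and 59 counts in the cKO pair and 41 in the control, a change of 0.47 ± 0.36. Pparg, the receptor that drives fat cell formation, had 142 and 99 counts in the cKO pair and 136 in the control, so the cKO libraries differed more from each other than their mean did from the control. Ppara, the fatty acid receptor of liver, had 19, 14 and 17 counts. Of the 5, Ppard alone had an unadjusted p under 0.05. Adipocyte markers, 1 of 7 tested, summed to 3.93 and 2.73 CPM in the cKO pair and 1.85 CPM in the control, and Cidec was at 0 in all libraries. Their part in these values was not tested.

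Thra had 1188 and 1074 counts in the cKO pair and 1370 in the control, or 95.4, 83.9 and 110 CPM. Both cKO libraries lay below the control, by 0.21 and 0.40 on the log2 scale, and the log2 fold change of -0.30 ± 0.14 (SE) did not pass. Thrb, the beta thyroid hormone receptor gene, had 31, 33 and 34 counts. Vdr, the vitamin D receptor gene, had 87 and 108 counts in the cKO pair and 89 in the control, a log2 fold change of 0.10 ± 0.29 (SE). The control value of Vdr lay between the cKO values. Of these 3 genes, 0 passed in edgeR, DESeq2 or limma-voom, and Thra had an unadjusted p under 0.05.

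Nr1d1, which encodes the clock repressor REV-ERB alpha, lies tail to tail with Thra on chromosome 11. Thra spans 98740638 to 98769006 on the plus strand and Nr1d1 spans 98767932 to 98775333 on the minus strand, and their exons share 263 bases. Reads in that stretch cannot be assigned to either gene without strand. Nr1d1 had 393 and 354 counts in the cKO pair and 300 in the control, or 31.6, 27.7 and 24.2 CPM. It lay above the control in both cKO libraries, with a log2 fold change of 0.29 ± 0.18 (SE), whereas Thra lay below in both. Nr1d2, the beta form, was at 45.3, 44.0 and 44.3 CPM, and Rora, an activator at the same DNA elements, at 30.8, 22.9 and 28.3 CPM. Rorb, the form known from retina and brain, had 0, 3 and 1 counts. Of the 3 clock-linked genes tested, 0 passed in edgeR, DESeq2 or limma-voom, with 0 at an unadjusted p under 0.05.

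The orphan receptors ranged widely. Nr2c2, which encodes TR4, was the most abundant of them by count, with 744 and 692 in the cKO pair and 728 in the control, but its exons share 4590 bases with Mrps25 on the opposite strand. Nr2f6 had 472 and 511 counts in the cKO pair and 433 in the control, and shares 1622 exon bases with Ocel1 in the same way. Nr2c1, which encodes TR2, had 238, 203 and 251 counts. Nr2f2, which encodes COUP-TFII, had 125 and 181 counts in the cKO pair and 115 in the control, a log2 fold change of 0.38 ± 0.26 (SE), and the cKO libraries stood farther apart than replicate 1 stood from the control. Its relative Nr2f1 had 9 and 3 counts in the cKO pair and 10 in the control. Nr6a1, the germ cell nuclear factor gene, had 40 and 38 counts in the cKO pair and 60 in the control, a change of -0.64 ± 0.36 (SE). Both cKO values of Nr6a1 lay below the control, and the difference did not pass. Nr5a2, a receptor of liver and ovary, had 0, 1 and 3 counts. Of the 6 orphan receptors tested, 0 passed in edgeR, DESeq2 or limma-voom, with 0 at an unadjusted p under 0.05.

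Transcripts of the proteins that work with these receptors were counted in 14 lists of other receptors, cofactors, chaperones, ligand enzymes and targets. Each gene was taken once and the members left out, which gave 135 genes tested. Of these, 5 rose, 2 fell and 128 did not pass in edgeR, with a median log2 fold change of 0.07. The shares among all genes were the 3.01% and 1.9% given above. DESeq2 called 2 of them higher and 1 lower. With the prior set to 3 degrees of freedom, or without the filter on low counts, edgeR called 0 of them.

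Cofactor lists held no call. Among all genes, 4.91% were called and 15.7% had an unadjusted p under 0.05 in edgeR. Of 15 coactivator genes, 0 passed in edgeR, DESeq2 or limma-voom, with 2 at an unadjusted p under 0.05 (median -0.02). The leading one was Ncoa7, at 15.6 and 17.7 CPM in the cKO pair and 9.83 CPM in the control, with a log2 fold change of 0.76 ± 0.23 (SE, with adjusted p = 0.0669 in edgeR). Of 11 corepressor genes, 0 passed by any of these tools and 3 had an unadjusted p under 0.05 (median 0.05). Of 10 chaperone genes, 0 passed by any of the 3 tools and 0 had an unadjusted p under 0.05 (median 0.04). Their leading member Hspa4 differed by 0.28 ± 0.14.

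Of the 16 nuclear receptor genes outside the set, 5 were tested and 0 passed by any of the 3 tools. At an unadjusted p under 0.05 there was 1, against 15.7% of all genes in edgeR. That was Nr4a1, an immediate-early orphan receptor, with 139 and 263 counts in the cKO pair and 106 in the control (log2 fold change 0.89 ± 0.30 SE, with adjusted p = 0.0987 in edgeR). Its value was 0.38 without cKO replicate 2 and 1.25 without cKO replicate 1.

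Estrogen receptor targets did not pass, where 6 of 12 listed genes could be tested. None of the 6 was called in edgeR, DESeq2 or limma-voom, with 0 at an unadjusted p under 0.05 (median 0.19). Most of the 12 are known from breast or uterus. Ret, a receptor kinase gene, led by p, with 28 and 26 counts in the cKO pair and 12 in the control, a log2 fold change of 1.14 ± 0.56 (SE, with adjusted p = 0.337 in edgeR). Greb1, a cofactor gene named for its induction by estrogen, had 11 and 2 counts in the cKO pair and 1 in the control. It was not tested, and its higher value rested on 1 library. Among abundant targets, Igfbp4 had 463 and 509 CPM in the cKO pair and 534 CPM in the control, and Ctsd, which encodes cathepsin D, had 1372 and 1442 CPM against 1213 CPM. Greb1, Igfbp4 and Ctsd were picked after their values were seen.

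Glucocorticoid receptor targets went both ways, with 2 of 16 higher and 1 lower, against 3.01% and 1.9% of all genes. Their median was 0.17, beside an Nr3c1 log2 fold change of 0.03. At an unadjusted p under 0.05 in edgeR there were 6 of the 16, against 15.7% of all genes. Errfi1, a brake on the EGF receptor, had 109 and 114 CPM in the cKO pair and 52.6 CPM in the control, and rose by 1.08 ± 0.15 (SE, with adjusted p = 2.70e-05 in edgeR). Dusp1, a phosphatase that switches off MAP kinases, had 93.5 and 117 CPM in the cKO pair and 71.3 CPM in the control, and rose by 0.56 ± 0.15 (adjusted p = 0.0361 in edgeR). Cdkn1c, the gene of the cell cycle inhibitor p57, had 17.9 and 18.5 CPM in the cKO pair and 31.9 CPM in the control, and fell by 0.81 ± 0.18 (adjusted p = 0.00784 in edgeR). In all 3 genes the cKO libraries lay on the same side of the control. Exons of Cdkn1c share 625 bases with an antisense gene. DESeq2 called Errfi1 but not Dusp1 (adjusted p = 0.332) or Cdkn1c (adjusted p = 0.297). Without cKO replicate 2 the Dusp1 value was 0.39, and without cKO replicate 1 it was 0.71.

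Of 12 LXR targets tested, 1 rose and 1 fell, against 3.01% and 1.9% of all genes, with a median of 0.07. At an unadjusted p under 0.05 in edgeR there were 4 of the 12, against 15.7% of all genes. Srebf1, the gene of a lipid synthesis factor that oxysterols induce, had 174 and 162 CPM in the cKO pair and 261 CPM in the control, and fell by 0.64 ± 0.13 (SE, with adjusted p = 0.00401 in edgeR). Arl4c, a small GTPase gene, had 28.6 CPM in both cKO libraries and 17.6 CPM in the control, and rose by 0.70 ± 0.19 (adjusted p = 0.0303 in edgeR). These 2 targets stood on opposite sides of the control. In DESeq2 Srebf1 passed (adjusted p = 0.0310) and Arl4c did not (adjusted p = 0.482).

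Dio3, whose enzyme inactivates thyroid hormone, was counted both as a hormone enzyme and as a thyroid hormone target. It had 426 and 717 counts in the cKO pair and 314 in the control, or 34.2, 56.0 and 25.3 CPM, and rose by 0.83 ± 0.22 (SE, with adjusted p = 0.0263 in edgeR). Its size rested on 1 library, at 0.43 without cKO replicate 2 and 1.14 without cKO replicate 1, and it did not pass in DESeq2 (adjusted p = 0.275). It was the 1 call among 13 genes of steroid, vitamin D and thyroid hormone metabolism (median 0.03) and among 4 thyroid hormone receptor targets tested (median -0.00). Among all genes, 4.91% were called. At an unadjusted p under 0.05 in edgeR there were 3 of the 13 and 2 of the 4, against 15.7% of all genes.

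Retinoid genes and the targets of retinoic acid, PPAR and vitamin D receptors held no call in edgeR or DESeq2. Among all genes, 15.7% had an unadjusted p under 0.05 in edgeR. Of 10 genes of retinoid metabolism and binding, 2 had an unadjusted p under 0.05 (median -0.09) and 1 fell in limma-voom. The pair went opposite ways. Dhrs9, a retinol dehydrogenase gene, had 52.7 and 52.3 CPM in the cKO pair and 36.5 CPM in the control, a log2 fold change of 0.52 ± 0.16 (SE, with adjusted p = 0.0571 in edgeR). Aldh1a1, which encodes an enzyme that makes retinoic acid, was the other, and was named after its values were seen. It had 48.3 and 34.2 CPM in the cKO pair and 60.9 CPM in the control, a log2 fold change of -0.56 ± 0.17 (SE, with adjusted p = 0.0704 in edgeR). Of 9 retinoic acid receptor targets, 0 passed in limma-voom either, with 1 at an unadjusted p under 0.05 (median 0.17). That was Meis2, a homeobox gene, at 0.43 ± 0.18. Of 18 PPAR targets, 0 passed in limma-voom, with 0 at an unadjusted p under 0.05 (median 0.07), and the leading gene Cpt1a, for the import of fatty acids into mitochondria, differed by 0.31 ± 0.15. Of 5 vitamin D receptor targets, 0 passed in limma-voom, with 3 at an unadjusted p under 0.05 (median 0.39). Tnfsf11, which encodes the osteoclast factor RANKL, led them with 36 and 43 counts in the cKO pair and 14 in the control, a log2 fold change of 1.46 ± 0.50 (adjusted p = 0.117 in edgeR).

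**Figure D4:**
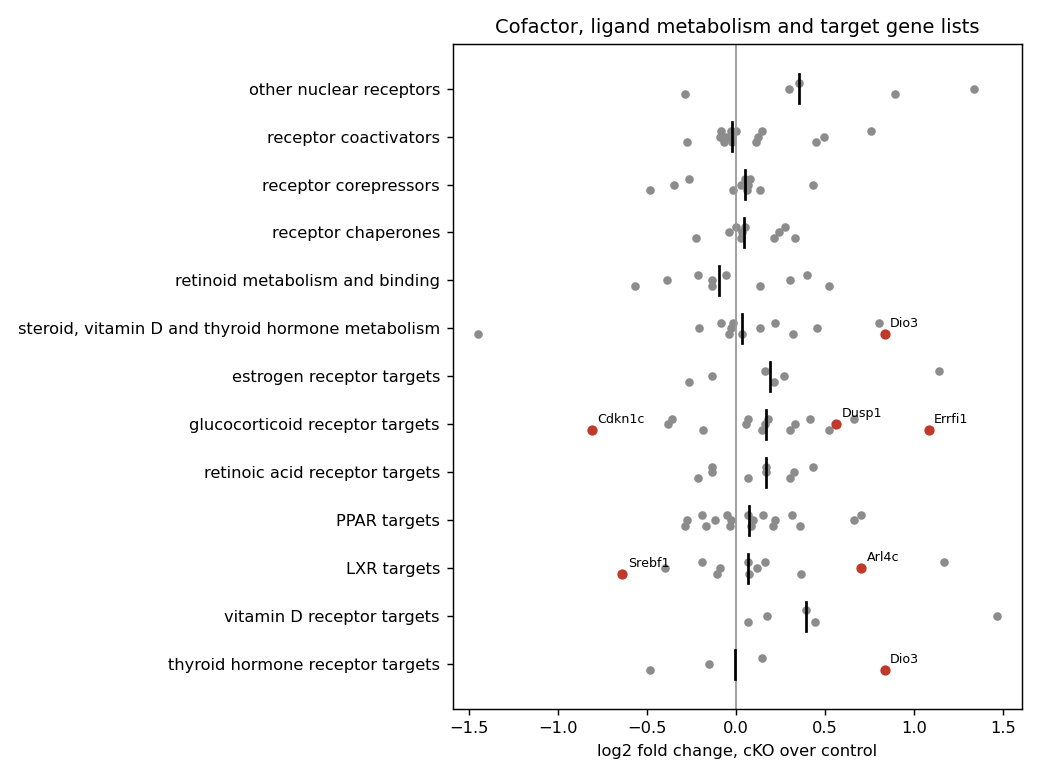
Log2 fold change of cKO over control for each tested gene of 13 receptor-linked lists, with 1 point for each gene and a black bar at the list median. Red points, with names, passed the edgeR threshold, and Dio3 stands in 2 lists. The medians lie between -0.09 and 0.39, and red points lie on both sides of 0.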

How the data were processed

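The values are raw read counts by gene symbol, which the authors deposited as a single table of 3 library columns. Per the labels' protocols, ribosomal RNA was removed before Ion Proton libraries were made. The submitters' processing notes list the builds GRCm38 and GRCh37 without a role. The aligner, counter, annotation and strand setting were not given in the sources used here.

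The counts were fitted across all genes with edgeR 4.0.16 in R 4.3.3 (filterByExpr, TMM, quasi-likelihood F test, Benjamini-Hochberg threshold of 0.05), after a check on simulated data. The fit has 1 residual degree of freedom, so the single control is taken to vary as the cKO pair does, and it leans on a prior of 19.9 degrees of freedom. The SE is the log2 fold change, without sign, over the root of F. CPM uses TMM-scaled totals, and lengths and positions come from GENCODE M21 on GRCm38.

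Members and lists were chosen with earlier results of these data known. Named genes were all members, Kdm6b and, in each list, the called genes (at most 4) or else the gene with the smallest p at a mean of at least 1 CPM. Alternatives were RLE size factors, no filter, DESeq2 1.42.0, limma-voom (limma 3.58.1), a prior of 3 degrees of freedom, leaving out each cKO library, and another length or total for levels. Some genes that the rule names are not reported here.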

Additional observations from a re-analysis of the deposited data

How the results depend on the processing

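Without the filter on low counts, edgeR tested 24051 genes with a prior of only 2.03 degrees of freedom and called 0 members, 0 genes of the receptor-linked lists and 0 genes in all, in either direction, though 1829 had an unadjusted p under 0.05. Esr1 kept its log2 fold change of 3.46 there without passing. With a prior of 3 degrees of freedom, Esr1 passed, the lists held 0 higher and 0 lower (14 at an unadjusted p under 0.05), and 83 genes were higher and 4 lower in all, against 467 and 295. DESeq2 called Esr1, 2 list genes higher and 1 lower, and 227 genes higher and 83 lower in all. RLE size factors left 3 list genes higher, losing Dio3 (adjusted p = 0.0561 in edgeR) and Dusp1 (adjusted p = 0.0595). The cause was not tested. In limma-voom all 41 members and list genes named kept their side of the threshold. Among these 41 genes, no alternative reversed the direction of a called one, and other called genes were not followed in this way.

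Leaving out 1 cKO library gave Esr1 values of 3.35 and 3.44, with no test, since no residual degrees of freedom remain. No paired analysis was possible because there is only 1 control library, so the groups cannot share 2 replicate numbers. There was 1 control library, and 9 members had 10 or fewer counts in every library, so that differences in them were not detectable at this depth.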
